A study of Mus musculus with 11 samples.

Results

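Genes of the Notch pathway were followed in mouse bone marrow endothelium sorted for the type H surface profile (high CD31 and high endomucin), and none of them passed the main test (voomLmFit, adjusted over all genes) in any comparison between tumour-infiltrated, adjacent and healthy marrow. Another tool, DESeq2, called 1 of them, *Rbpj*, between infiltrated and adjacent marrow. The 10 members are the receptors *Notch1* and *Notch4*, the ligands *Dll1*, *Dll4*, *Jag1* and *Jag2*, the transcription factor *Rbpj* and the target genes *Hes1*, *Hey1* and *Heyl*. They are listed by name as the core pathway of bone endothelium, with earlier results of these data known, and are 10 of the 23463 named genes kept from the count table. All 10 had a row in the table and passed the filter on low counts. *Jag2* transcripts were higher, and *Rbpj* transcripts lower, in each of the 3 libraries from infiltrated marrow than in every library of both other groups. Neither difference passed the main test, and for *Jag2* the lowest infiltrated library lay just above the highest healthy library. Infiltrated libraries lay wholly above adjacent ones for 1.54% of all genes tested and wholly below for 0.444%. Against healthy marrow the shares were 8.43% and 12.3%, and the share apart from both groups at once was not counted.

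Notch signalling passes between touching cells. A Delta-like or Jagged ligand on one cell binds a Notch receptor on its neighbour, the receptor is cut by ADAM proteases and then by γ-secretase, and the freed intracellular part enters the nucleus, where it joins RBPJ on DNA and turns on Hes and Hey repressor genes. In growing vessels DLL4 restrains sprouting and favours arterial identity, Jagged ligands can act against DLL4, and in bone Notch activity in type H capillaries is tied to vessel growth and bone formation.

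The RNA came from endothelial cells sorted for high CD31 and high endomucin, the surface profile of type H capillaries, after cells bearing the blood-cell markers CD45 or Ter-119 had been gated out. All mice were BALB/c young adults. The tumour-burdened animals carried mammary cancer cells (the line 4T1.2, derived from the same strain) marked with a red fluorescent protein, and their marrow was microdissected by that fluorescence. Infiltrated marrow gave 3 met libraries, neighbouring marrow without tumour gave 6 non-met libraries, and age-matched healthy mice gave 2 control libraries, which were not microdissected. Each library of burdened animals was made from a pool of 1 to 4 mice. The control libraries also came from pools, of a size that the methods do not give. The 9 libraries of burdened animals came from 4 pools: non-met 1 and 5 from pool 1, non-met 2 and 6 and met 1 from pool 2, non-met 3 and met 2 from pool 3, and non-met 4 and met 3 from pool 4. The number of independent pools is therefore smaller than the number of libraries, and p-values computed over libraries do not allow for this unless a block is named. In sorted bulk RNA, fewer cells expressing a gene and less RNA per cell cannot be told apart.

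Total counts ran from 733342 (non-met 4) to 19539761 (control 1), and 3 non-met libraries held fewer than the smallest met library (2547520). The defining markers of the sort were present in all 11 libraries, with *Pecam1* (CD31) at 972 to 3163 CPM (counts-per-million reads, with TMM scaling) and *Emcn* at 351 to 1361 CPM. *Pecam1* was higher in met by the weighted fit, by 0.89 ± 0.13 on the log2 scale against non-met (SE; voomLmFit adjusted p = 0.000441), while limma-trend, the quasi-likelihood test and DESeq2 gave adjusted p of 0.911, 0.564 and 0.592. The sum of 10 endothelial genes was 13157 to 15878 CPM in met, 9757 to 15985 in non-met and 7970 and 12083 in control, so met and non-met overlapped. The part of these endothelial levels in the Notch values was not tested. Genes of sinusoidal endothelium were also abundant, with a sum over 8 genes of 5997 to 9768 CPM in met, 7146 to 13079 in non-met and 10021 and 12775 in control. Type H names here the surface profile of the gate. Markers of other cells were present too. The summed CPM of 12 granulocyte genes was 397 to 5147 in the non-met libraries, against 35.5 to 204 in met and 80.2 to 388 in control. The sum of 15 mural and stromal genes was 4242 and 11337 in the controls, 1290 to 3969 in non-met and 559 to 3369 in met. Of 10 epithelial genes, *Lcn2* is also in the granulocyte list and reached 509 CPM in non-met 6. The sum of the other 9 was 0.684 and 19.1 CPM in the tumour-free controls, 8.61 to 55.3 CPM in the met libraries and 0.721 to 110 CPM in the non-met libraries, with *Krt5* and *Krt14* at 3 reads or fewer in every library. The gate against CD45 would remove granulocytes, and the part of these cells in the Notch values was not tested.

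The receptors were abundant in every group, and neither separated the groups. *Notch1* stood at 338 and 208 CPM in the controls, at 122 to 671 CPM in non-met with a median of 368, and at 200, 392 and 488 CPM in met. Control and met values all lay inside the non-met range. The fitted log2 fold change of met against non-met was 0.40 ± 0.40 (SE; voomLmFit adjusted p = 0.843), and the mean log2 CPM of both groups was the same at 8.40.

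*Notch4*, the receptor largely restricted to endothelium, varied more. It stood at 764 and 347 CPM in the controls, at 88.0 to 806 CPM in non-met with a median of 434, and at 698, 595 and 245 CPM in met. The low values were in non-met 3 and non-met 4, and the groups overlapped. Met against control had a log2 fold change of -0.98 ± 0.34 (SE), with a voomLmFit p of 0.00921 before adjustment, the smallest of any member, and 0.152 after it, while the difference of the unweighted means was -0.14. That comparison depended on the controls: without control replicate 2 it passed the threshold at -1.10 (adjusted p = 0.0156), and without control replicate 1 it was 0.0073 (adjusted p = 0.996). Against non-met the weighted fit gave -0.37 and the unweighted means gave 0.55, so the direction was not settled.

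Per base of transcript, *Notch4* exceeded *Notch1* in both controls, with ratios of their RPKM (CPM divided by gene length in kilobases) of 3.25 and 2.40. The ratio was 5.02 and 2.18 in met 1 and met 2 and 0.721 in met 3. In non-met it ran from 0.244 to 7.07 with a median of 2.36. The libraries in which *Notch1* exceeded *Notch4* were non-met 3, 4 and 5 and met 3.

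**Figure D1:**
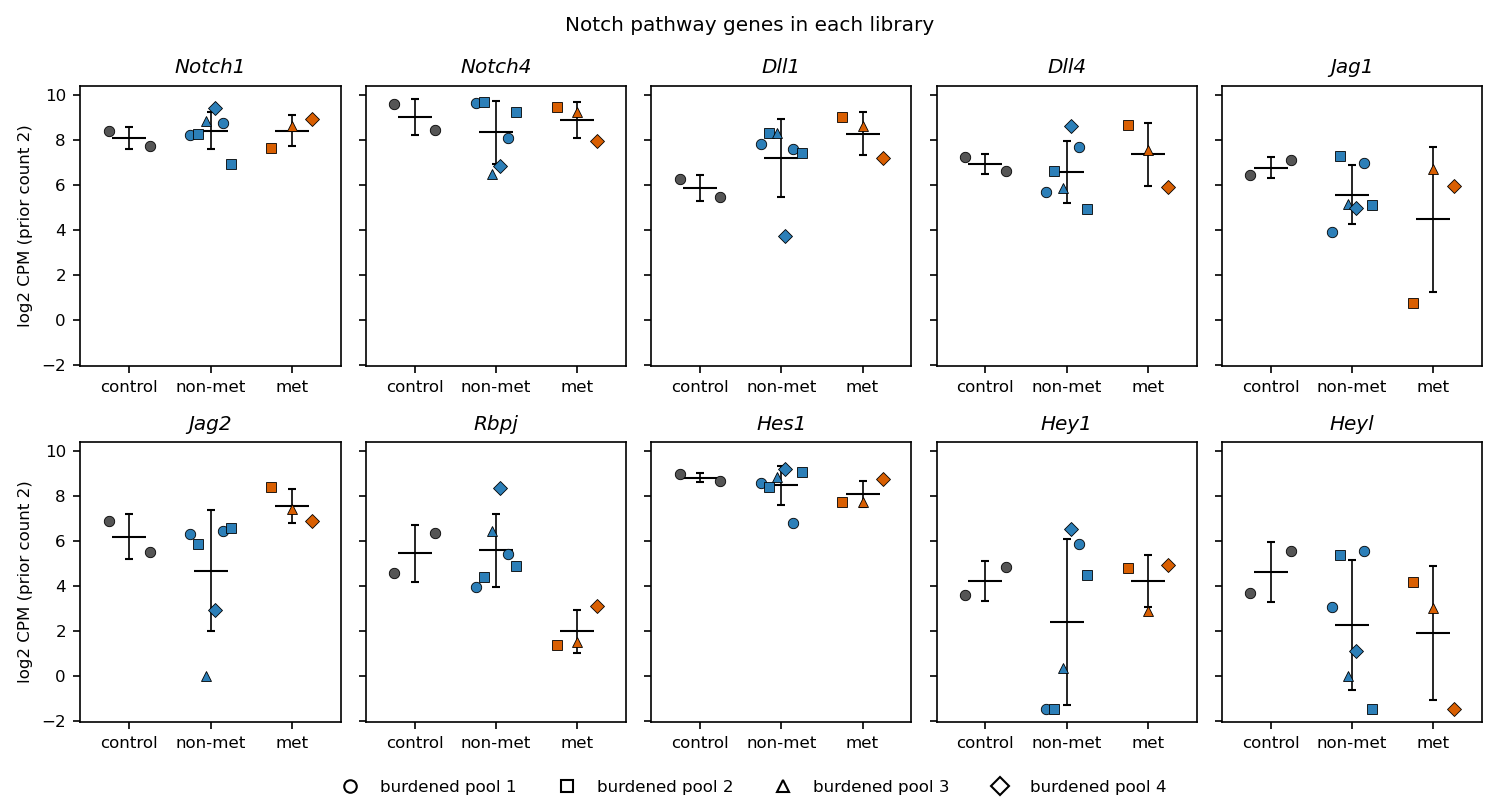
Log2 CPM (prior count 2) of the 10 genes in each library, by group; symbols give the mouse pool of burdened animals, horizontal bars the group mean and vertical bars 1 SD (3 met, 6 non-met and 2 control libraries). The 3 met libraries lie above all others for *Jag2* and below all others for *Rbpj*, while for *Hey1* and *Heyl* the non-met libraries alone run from 0 CPM to 92.3 and 46.7 CPM.

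Among the ligands, *Jag2* was the gene whose met libraries stood apart. *Jag2* encodes a Jagged ligand and overlaps the microRNA gene *Mir6941* on chromosome 12 (GRCm38.p6, 112907803 to 112929812). Its CPM was 332, 170 and 119 in met, 118 and 44.4 in control, and 0.622 to 93.3 in non-met with a median of 67.4. The lowest met library lay just above the highest control library, and all 3 lay above the 6 non-met libraries, of which non-met 3 and non-met 4 had 2 and 4 reads. The log2 fold change of met against non-met was 2.71 ± 1.18 (SE), with a voomLmFit p of 0.0309 before and 0.624 after adjustment over 11948 genes. Of all genes tested, 1.54% had met libraries wholly above the non-met libraries, and *Jag2* was the one member of 10 to do so. Leaving out each library in turn kept the fold change between 1.64 and 3.38 and never below 0. Non-met 3 and non-met 4 were not left out together, and the other non-met libraries stood at 57.0 to 93.3 CPM. Against control the *Jag2* fold change was 1.01 ± 0.91 (adjusted p = 0.675). It ran from 0.41 to 1.80 with each library left out and reached 3.28 among the other alternatives.

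*Dll1*, a Delta-like ligand, was lowest in healthy marrow. It stood at 76.4 and 42.8 CPM in the controls, at 146 to 514 CPM in met with 382 in met 2, and at 12.7 to 314 CPM in non-met with a median of 207. All met libraries and 5 of the 6 non-met libraries lay above both controls, the exception being non-met 4, with 7 reads. The log2 fold change was 1.96 ± 0.97 (SE) for met against control, with a voomLmFit p of 0.0561 before and 0.373 after adjustment, and 1.78 ± 1.13 for non-met against control (adjusted p = 0.390). Both comparisons use the same 2 control libraries. Met against non-met gave 0.18 ± 0.73 in the weighted fit and 1.08 as a difference of unweighted means. This value turned to -0.024 with RLE scaling, to -0.20 without non-met replicate 4 and to -0.086 without met replicate 2.

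*Dll4*, the ligand of sprouting and arterial endothelium, did not separate the groups. It stood at 149 and 96.1 CPM in the controls, at 401, 182 and 58.4 CPM in met, and at 29.3 to 387 CPM in non-met with a median of 76.6. The highest non-met value, in non-met 4, came close to the highest met value, in met 1. Met against non-met was 0.48 ± 0.78 (adjusted p = 0.927), and it was 1.62 without met replicate 3. The noncoding gene *Gm14207* overlaps *Dll4* and held at most 198 reads in a library, and whether counting used strand is not given in the sources used here.

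*Jag1*, the other Jagged ligand, stood at 85.4 and 136 CPM in the controls and at 14.4 to 153 CPM in non-met with a median of 34.5. In met it stood at 102 and 61.3 CPM in met 2 and met 3 and at 1.32 CPM in met 1, where it had 3 reads. The met mean rested on met 1: the fold change of met against non-met, -0.41 ± 1.61, became 0.76 without that library. Met 1, the library with the most *Jag2*, had the least *Jag1*.

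The make-up of the ligands was read from RPKM, so that genes of unequal length could be compared. *Dll4* led in both controls, with 39.2% and 36.7% of the summed ligand RPKM. *Dll1* led in all 3 met libraries, with 42.6% to 49.6%, and in 4 of the 6 non-met libraries. Non-met 4 was the extreme, with 91.0% *Dll4* and 3.00% *Dll1*. *Jag2* made up 18.7% to 29.3% in met, 14.4% and 26.4% in control and 0.135% to 26.6% in non-met.

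**Figure D2:**
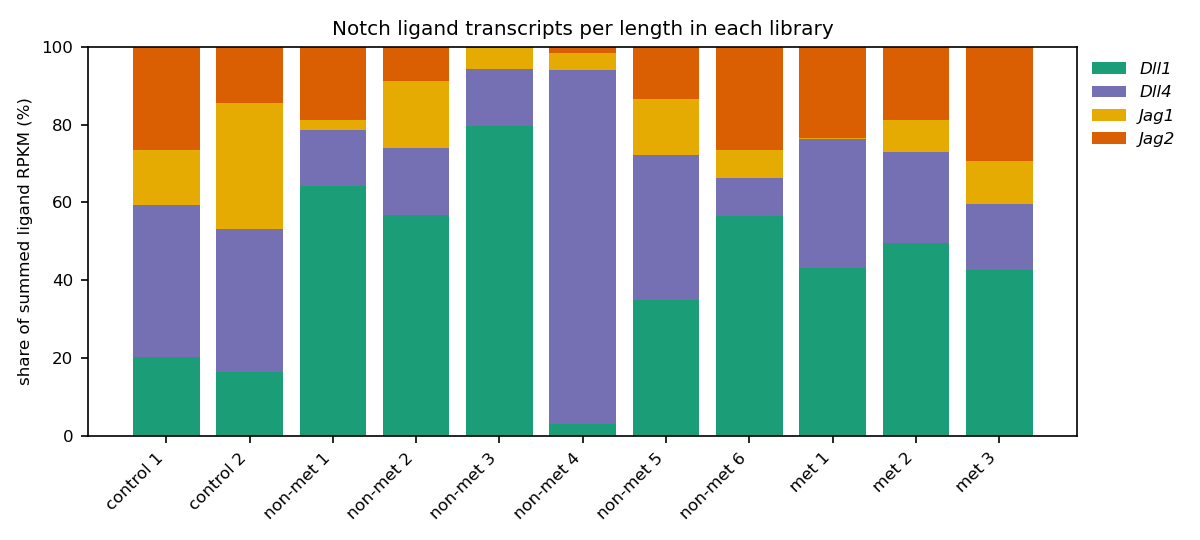
Share of the summed RPKM of the 4 ligand genes held by each of them (percent, stacked to 100) in every library. *Dll4* is the largest share in both controls and *Dll1* in the 3 met libraries, at 42.6% to 49.6%.

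The log2 ratio of Jagged to Delta-like RPKM was -0.37 ± 0.26 (SD) in control, -1.23 ± 0.60 in met and -2.28 ± 1.34 in non-met. Delta-like transcripts exceeded Jagged transcripts in all 11 libraries. Non-met against control gave p = 0.0714 by an exact two-sided permutation test over 28 splits, where the smallest p possible was 0.0357. Met against non-met gave p = 0.202 (exact permutation, 84 splits, smallest possible 0.0119) and met against control p = 0.200 (exact permutation, 10 splits, smallest possible 0.100). These are 3 comparisons of 1 measure, and none passed 0.05 even before adjustment.

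*Rbpj*, which encodes the DNA-binding factor that all Notch receptors share, had the lowest mean log2 RPKM of the members in met, though *Heyl* had a lower mean log2 CPM there. It stood at 2.20, 2.46 and 8.15 CPM in met 1, met 2 and met 3, from 5, 13 and 71 reads. It stood at 15.1 to 327 CPM in non-met with a median of 35.9, and at 23.1 and 81.2 CPM in the controls. The highest met library lay below the lowest of the 8 others, and the non-met libraries spread more widely than the controls.

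The log2 fold change of *Rbpj* in met was -3.42 ± 2.02 (SE) against non-met, with a voomLmFit p of 0.103 before and 0.751 after adjustment. Against control it was -3.53 ± 2.01 (adjusted p = 0.463). Of all genes tested, 0.444% had met libraries wholly below the non-met libraries, and *Rbpj* was the one member of 10 to do so. The call depended on the tool. DESeq2 gave -4.54 with an adjusted p of 0.00358 for met against non-met and called 2.71% of all genes there, 303 of its 324 calls being lower in met. The edgeR quasi-likelihood test gave an adjusted p of 0.564 and limma-trend 0.911. Leaving out each library kept the voomLmFit value between -3.93 and -3.09 for met against non-met. For met against control it ran from -4.52 to -2.71, and to -5.64 among the other alternatives. RefSeq lists 3 *Rbpj* pseudogenes, none of which had a row in the count table, so reads shared with them could not be assessed.

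The reference sequence before the start sites was read for the letters that RBPJ and the Hes and Hey repressors are known to bind. Windows of 250 bases upstream of RefSeq start sites (GRCm38.p6) were searched on both strands for the RBPJ core TGGGAA, which reads TTCCCA on the other strand, and for the E-box CACGNG, which reads CNCGTG. The 2 motifs can share bases where they meet. Of 32851 windows, 21.6% held the RBPJ core and 23.5% the E-box. Windows were found for 7 of the 10 members, and those of *Hes1*, *Hey1* and *Heyl* were not analysed here. Of the 7, *Rbpj* was the one with the RBPJ core. It is shown because *Rbpj* transcripts were low in met, with the 30 bases around each match given 5′ to 3′ on the gene's strand and the motif in capitals (chr5:53590185-53590214 and chr5:53590269-53590298, plus strand, 149 and 65 bases before a start site).
Rbpj first site: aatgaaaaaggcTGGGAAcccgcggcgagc
Rbpj second site: gacgctcgcattTTCCCAggacccctcctc
Of the same 7, the E-box was held by *Dll1*, *Dll4* and *Jag1*. Their matches are shown to set the ligand genes side by side (*Dll1* chr17:15375911-15375940 and chr17:15376983-15377012 before separate start sites, minus strand; *Dll4* chr2:119325577-119325606, plus strand; *Jag1* chr2:137116741-137116770 and chr2:137116674-137116703, 249 and 171 bases before a start site, minus strand).
Dll1 downstream start: accagggcaggtCACGGGagagcaccggtg
Dll1 upstream start: cttaatgacagcCACGCGaacgacacacac
Dll4: ctgctcgccgggCACGCGcagagctggaag
Jag1 first site: cCGCGTGttgagaagaggtggccagccgga
Jag1 second site: gagccaggcgggCACGCGtcattgtgttac
The windows of *Notch1*, *Notch4* and *Jag2* held neither set of letters. A match is a description of the reference and no record of binding in these cells.

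The target genes fell into an abundant member and a pair of sparse ones. *Hes1*, a repressor and the standard readout of Notch activity, had the highest mean log2 RPKM of the members in every group, at 281 and 340 RPKM in the controls, 145 to 296 RPKM in met and 76.4 to 405 RPKM in non-met. In CPM it stood at 493 and 408 in control, at 214, 211 and 430 in met, and at 111 to 588 in non-met with a median of 417. Met 1 and met 2 lay below both controls and below 5 of the 6 non-met libraries, while non-met 5 was the lowest of all. The log2 fold change was -0.20 ± 0.43 against non-met (adjusted p = 0.952) and -0.62 ± 0.37 against control (adjusted p = 0.485), both with SE.

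*Hey1*, the endothelial Hey repressor, stood at 11.7 and 28.5 CPM in control and at 27.3, 7.01 and 30.4 CPM in met. In non-met it ran from 0 CPM in non-met 1 and non-met 2 to 92.3 CPM in non-met 4. Zero reads in those libraries, of 6702201 and 7683451 counts, allow up to 0.541 and 0.435 CPM by counting error alone (3 counts). The groups overlapped fully, and met against non-met was 1.46 ± 2.18 (adjusted p = 0.916).

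*Heyl*, a Hey gene also known from mural cells, stood at 12.4 and 46.9 CPM in control and at 17.6, 7.77 and 0 CPM in met. In non-met it ran from 0 to 46.7 CPM with a median of 4.87. The fitted value was -3.02 ± 1.62 for non-met against control (adjusted p = 0.335) and -3.24 ± 2.29 for met against control (adjusted p = 0.573), the latter moving to -0.85 without met replicate 3. Control 2, with the most *Heyl*, also had the highest mural and stromal sum, 11337 CPM, and non-met 5, with 46.7 CPM of *Heyl*, the highest of the burdened libraries, 3969 CPM. Non-met 2 had 40.9 CPM of *Heyl* at a sum of 1690 CPM. In the controls most of the mural and stromal sum was a single gene, *Cxcl12*, at 3224 and 8721 CPM. It stood at 555 to 2603 CPM in non-met. The part of mural or stromal cells in the *Heyl* values was not tested.

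Ordered by mean log2 RPKM, *Hes1* came first and *Heyl* or *Rbpj* last in every group, with *Notch4* at rank 2 in control and non-met and rank 3 in met. *Dll1* differed most in rank, at 7 in control, 3 in non-met and 2 in met. Of the 27 neighbouring pairs in these orders, 8 were apart by more than the SD of their paired difference, 4 of them in control, where n was 2. In met the mean difference of *Dll1* over *Notch4* was 0.34 ± 0.16 (SD of the paired log2 difference), with that order in all 3 libraries, whereas *Dll4* and *Jag2* were 0.017 ± 0.70 apart. In non-met *Hes1* exceeded *Notch4* by 2.34 ± 1.76, in all 6 libraries, and *Rbpj* exceeded *Jag2* by 0.41 ± 3.94, in 2 of 6. In control *Hes1* exceeded *Notch4* by 1.99 ± 0.61, in both libraries. The other pairs in control were *Notch4* over *Dll4*, *Dll4* over *Notch1* and *Rbpj* over *Heyl*, each with that order in both libraries. *Notch1* over *Hey1* in met and *Dll4* over *Jag1* in non-met also kept their order in every library. In met *Hes1* exceeded *Dll1* by 1.05 ± 1.52, in 2 of 3 libraries.

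Over the 10 members together, voomLmFit with an adjusted p under 0.05 called 0 in each comparison. The share of all genes it called was 0.427% for met against non-met, 1.2% for met against control and 0.636% for non-met against control. At an unadjusted p under 0.05 it counted 1, 1 and 0 of the 10 members, beside 7.24%, 14.1% and 17% of all genes. The edgeR quasi-likelihood test and limma-trend called 0 members in all 3 comparisons, and DESeq2 called 1, *Rbpj* in met against non-met. The median fitted log2 fold change of the members was -0.0082, -0.40 and -0.64 in these comparisons, beside medians of 0.076, -0.094 and -0.33 over all 11948 genes.

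**Figure D3:**
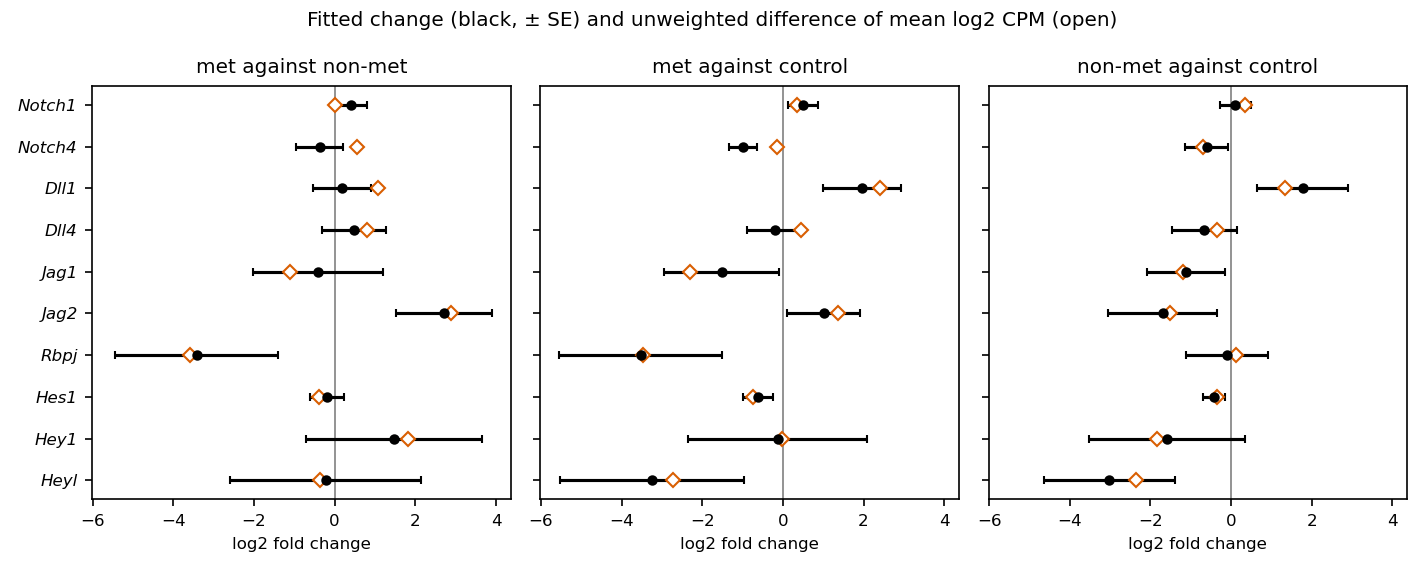
Log2 fold change of each gene in the 3 comparisons from the weighted fit (black points, bars ± 1 SE) and the difference of unweighted group means of log2 CPM (open diamonds). No gene passes the adjusted threshold. The bars of *Jag2* and *Rbpj* in met against non-met lie clear of 0, as do those of most members in met against control. A bar of 1 SE clear of 0 is no test. The weighted and unweighted values lie on opposite sides of 0 for *Notch4* in met against non-met, *Dll4* in met against control and *Rbpj* in non-met against control.

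Libraries that did not overlap between groups were also read against all genes. Against control, the met libraries were wholly higher for *Jag2* and *Dll1* and wholly lower for *Rbpj*. With only 3 and 2 libraries such separation was common, at 8.43% of genes higher and 12.3% lower. For non-met against control no member separated, where 1.26% of genes were wholly higher and 5.03% wholly lower.

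The met libraries could be set against non-met libraries of the same animals in 4 pairs, which share 3 pools and 3 met libraries, met 1 entering in 2 pairs. *Jag2* was higher in met in all 4 pairs, by 1.83 to 7.44 on the log2 scale. *Dll1* was higher in all 4, by 0.29 to 3.49. *Rbpj* was lower in all 4, by -3.04 to -5.27, and *Hes1* was lower in all 4, by -0.45 to -1.30. Of all genes, 7.6% were higher in all 4 pairs and 5.67% lower, against 2 of 10 members each way. *Dll4* was higher in 3 pairs and lower in pool 4, by -2.72. With the pool as a block in the fit, no member was called, and *Jag2* and *Rbpj* both had an adjusted p of 1.00.

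**Figure D4:**
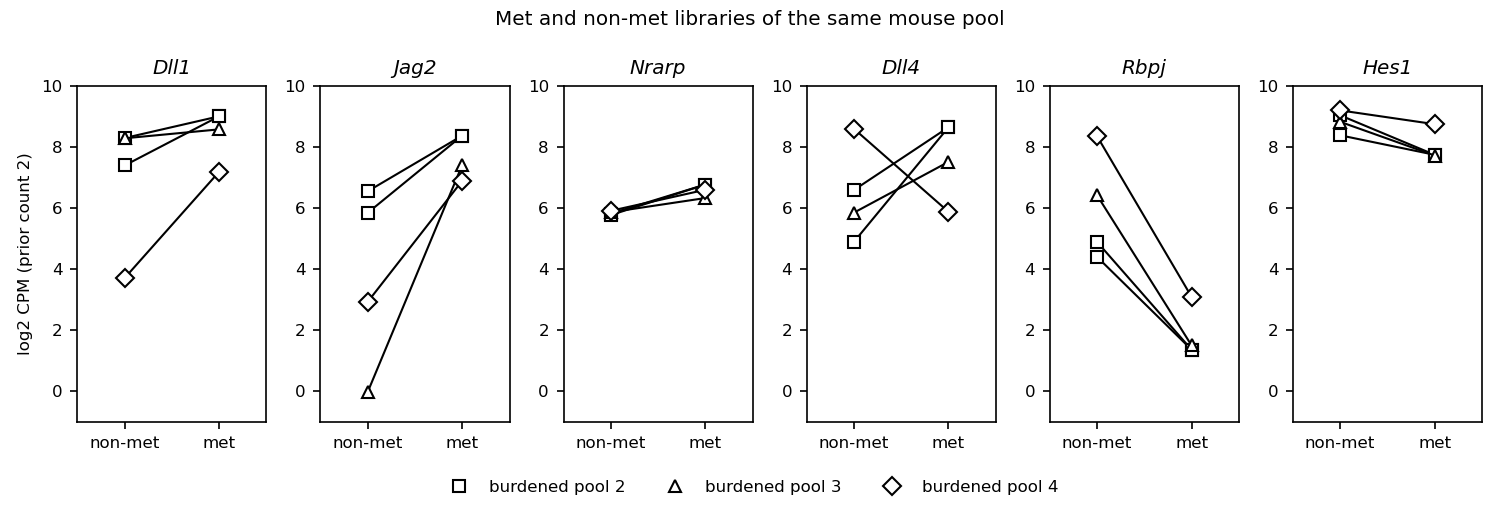
Log2 CPM (prior count 2) of 6 genes in non-met and met libraries of one mouse pool, joined by lines; pool 2 gave 2 non-met libraries and 1 met library. *Dll1*, *Jag2* and *Nrarp* slope up and *Rbpj* and *Hes1* slope down in all 4 pairs, while *Dll4* slopes down in pool 4 alone.

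A further 54 pathway genes, listed by role, were read in the same fit, and 45 were tested. None was called in any comparison by voomLmFit, where the lowest adjusted p was 0.411, 0.137 and 0.0828. At an unadjusted p under 0.05 the counts were 4, 3 and 8 of 45, beside the 7.24%, 14.1% and 17% of all genes. For met against non-met, 3 of the 45 were wholly higher in met (*Adam10*, *Maml1* and *Nrarp*) and 1 was wholly lower (*Spen*), beside 1.54% and 0.444% of all genes. The median log2 fold change of the 45 was 0.086, -0.23 and -0.42, near that of all genes.

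Of the other receptors and ligands, *Egfl7*, a secreted endothelial protein that can bind Notch, was the most abundant and the steadiest, at 1387 to 2328 CPM over all libraries. *Notch2* ranged from 1.24 to 105 CPM and *Notch3*, the mural receptor, from 0.379 to 231 CPM. Of the glycosyltransferases that tune the receptor, *Lfng* stood at 97.9 and 77.9 CPM in control and at 0.441 to 57.5 CPM in met, without overlap (log2 fold change -2.68, adjusted p = 0.553). *Mfng* stood at 127 and 205 CPM in control, 107 to 227 CPM in met and 0 to 711 CPM in non-met. *Pofut1* and *Poglut1*, which add the first sugars, ranged from 0 to 121 CPM and from 0 to 112 CPM.

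The sheddase *Adam10*, which makes the first cut of the bound receptor, was above every other library in the 3 met libraries. It stood at 349, 504 and 350 CPM there, at 277 and 272 CPM in control and at 124 to 335 CPM in non-met. The log2 fold change against non-met was 0.73 ± 0.40 (SE; adjusted p = 0.735). *Adam10* was higher in met in all 4 pairs, by 0.059 to 0.82, as were 7.6% of all genes. *Adam17*, the related protease, stood at 112 to 135 CPM in met and 71.7 and 91.1 CPM in control, with non-met from 0 to 217 CPM. The γ-secretase subunit *Ncstn* and the convertase *Furin* overlapped between all groups.

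Of the genes that traffic ligand and receptor, *Itch*, *Mib1*, *Dtx3* and *Neurl1b* were the most abundant, and all 4 overlapped between met and non-met. The ligand ubiquitin ligase *Mib1* stood at 0.881, 16.5 and 72.9 CPM in met and at 55.8 and 83.9 CPM in control. In the nuclear complex, the coactivator *Maml1* stood at 323, 203 and 185 CPM in met and at 0 to 141 CPM in non-met, without overlap (log2 fold change 3.69 ± 1.38, SE; voomLmFit adjusted p = 0.506). The controls, at 102 and 226 CPM, overlapped both. *Spen*, which encodes an RBPJ-binding corepressor, stood at 43.6, 103 and 35.9 CPM in met and at 104 to 183 CPM in non-met, so met 2 and the lowest non-met library were nearly equal (log2 fold change -1.34 ± 0.92, SE; voomLmFit adjusted p = 0.773). *Tle3* and *Snw1* overlapped in all comparisons.

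Among other targets, *Nrarp*, a feedback inhibitor that acts on the Notch and RBPJ complex and is itself induced by Notch, separated non-met from both other groups. It stood at 109, 80.0 and 96.6 CPM in met, at 159 and 95.4 CPM in control and at 0.530 to 64.7 CPM in non-met with a median of 56.9. All 6 non-met libraries lay below both other groups, and 5 of them lay between 54.2 and 64.7 CPM. The log2 fold change was 1.23 ± 1.11 for met against non-met (SE; adjusted p = 0.820) and -1.73 ± 1.02 for non-met against control (adjusted p = 0.364). Within pools *Nrarp* was higher in met in all 4 pairs, by 0.46 to 1.00. *Hes1*, as given above, was lower in the same 4 pairs.

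The 250 bases before the *Nrarp* start site are shown because *Nrarp* was the target whose libraries separated, with the E-box in capitals 108 bases before the start and no RBPJ core (GRCm38.p6, chr2:25180508-25180757, plus strand).
Nrarp: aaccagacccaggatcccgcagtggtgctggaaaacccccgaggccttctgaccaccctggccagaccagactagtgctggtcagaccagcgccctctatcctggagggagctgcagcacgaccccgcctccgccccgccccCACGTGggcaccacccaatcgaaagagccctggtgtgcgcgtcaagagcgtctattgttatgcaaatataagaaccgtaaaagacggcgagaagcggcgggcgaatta

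The arterial targets *Efnb2* and *Gja4* and the guidance receptor *Unc5b* spread widely. *Efnb2* ranged from 29.7 to 468 CPM, *Gja4* from 0 to 106 CPM and *Unc5b* from 1.06 to 160 CPM, and none separated met from non-met. *Hes5*, *Hes7* and *Hey2*, the remaining classical Hes and Hey targets, had 0 reads in 63578779 counts over all libraries, which allows up to 0.0487 CPM by counting error alone. The RBPJ core lies in the windows of *Hes5* and *Hey2*, as it does in that of *Rbpj*.
Hes5 first site: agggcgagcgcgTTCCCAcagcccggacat
Hes5 second site: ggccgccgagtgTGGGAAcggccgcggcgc
Hey2: tgcgcggtggcaTTCCCAcgcctctgccaa
The *Hes5* sites lie at chr4:154960685-154960714 and chr4:154960829-154960858 (plus strand) and that of *Hey2* at chr10:30842973-30843002 (minus strand).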

How the data were processed

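Total RNA of sorted cells was amplified with a low-input full-length kit (SMART-Seq v4). Per the methods, the authors aligned reads to mm10 with Rsubread, ran featureCounts on Entrez genes (built-in NCBI annotation), and removed 1 library of low mapping. The deposited values are raw read counts per gene, with the gene length in bases as the authors' other column. Symbols came from RefSeq GRCm38.p6 for 25275 of 27179 rows and from GENCODE for 18. The 1886 unnamed, 36 ribosomal RNA and 1794 predicted rows, 1.94% to 15.7% of a library's counts, were left out. filterByExpr (minimum count 10, total 15) left 11948 genes. TMM scaling and voomLmFit with sample weights (edgeR 4.0.16, limma 3.58.1) were used in 1 model of all 11 libraries, with Benjamini-Hochberg adjustment over all genes and a threshold of 0.05. Weights ran from 0.43 (control 1) to 1.96 (non-met 4, the shallowest library). Log2 CPM and RPKM used a prior count of 2. SE and SD are from the spread between libraries, and limits for 0 reads cover counting error only.

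Pairs inside a pool come from the labels, which name the same animals. Spearman correlations of the paired libraries' deviations from their group means ran from -0.02 to 0.02 across genes. The members and gene lists were chosen with earlier results of these data known. Named genes are the members and, of each list, genes past the threshold and up to 4 of the highest mean CPM; 1 gene that the rule names is not reported here. *Spen*, *Hes5*, *Hes7*, *Hey2*, *Dtx1* and *Nog* were named outside this rule, after their values were seen. Alternatives were DESeq2 1.42.0, edgeR quasi-likelihood, limma-trend, RLE scaling, no filter, pool as a block, summed libraries and each library left out.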

Additional observations from a re-analysis of the deposited data

Results flagged for a closer look

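In the 6 non-met libraries the log2 CPM of *Dll1* was 3.70 in non-met 4, the lowest value, and its gap to the next library was 0.804 of the group's whole range, above the critical value of 0.625. Non-met 4 is the shallowest library, with 733342 counts, and had 7 *Dll1* reads. *Hes1* was lowest in non-met 5, at a log2 CPM of 6.80, with a gap of 0.660 of the range. Only non-met had enough libraries for this check, which ran on 11 measures. Chance sets apart about 1 in 20 groups.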

How the results depend on the processing

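Of 590 alternative values of the 30 member results, 533 kept their direction and side of the threshold, 55 changed sign, 2 became calls and 0 lost one, since none was called. No change of sign occurred in 15 of the 30, among them *Jag2* in all 3 comparisons and *Rbpj* in met against non-met and met against control. The count of members called stayed 0 except for 1 under DESeq2 in met against non-met and 1 without control replicate 2 in met against control. The cause of the changes of sign was not tested.

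For met against non-met, *Notch1* was -0.079 with edgeR quasi-likelihood and -0.26 with DESeq2, *Notch4* 0.20, 0.056 and, with limma-trend, 0.55, and *Hey1* -0.41 and -0.68. RLE scaling gave *Dll1* -0.024. With the mouse pool as a replicate block, *Notch1* was -0.28, *Notch4* 0.29, *Jag1* 0.25 and *Heyl* 0.25, and no call changed. The following were chosen after seeing the data: a term for 2 library sets, split at 2 CPM of *Krt8*, gave *Notch4* 1.05, *Hey1* -0.17 and *Heyl* 0.39; libraries with *Krt8* traces alone gave *Notch4* 0.93, *Jag1* 0.15 and *Hey1* -0.042; the 8 libraries over the depth of 2000000 counts gave *Dll1* -0.15.

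For met against control, *Dll4* was 0.80 (quasi-likelihood), 0.77 (DESeq2) and 0.44 (limma-trend), *Hey1* 0.10 (quasi-likelihood) and *Notch4* 1.30 (library sets). *Hey1* also moved without a change of sign, to -7.96 for met against control and -7.79 for non-met against control with library sets, and to 6.23 for met against non-met in the deep libraries. For non-met against control, *Dll4* was 0.16 and 0.32, *Rbpj* 0.73 and 0.79 and *Hey1* 0.51 and 0.65 (quasi-likelihood and DESeq2), *Rbpj* 0.12 (limma-trend) and 0.070 (RLE), and *Notch4* 0.25 (library sets).

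With each library left out, met against non-met ranged from -0.068 to 0.53 for *Notch1*, -0.93 to 0.46 for *Notch4*, -0.20 to 1.07 for *Dll1*, -3.04 to 0.76 for *Jag1*, -0.75 to 0.019 for *Hes1*, 0.26 to 1.62 for *Dll4* and -1.50 to 2.13 for *Heyl*. Met against control ranged from -1.22 to 0.0073 for *Notch4*, -0.41 to 0.93 for *Dll4*, -0.73 to 0.67 for *Hey1*, -4.50 to -0.85 for *Heyl* and -4.15 to -0.39 for *Jag1*. Non-met against control ranged from -0.085 to 0.61 for *Notch1*, -1.17 to 0.37 for *Notch4* and -1.11 to 0.72 for *Rbpj*. The Jagged to Delta-like ratio kept its direction under every alternative run, none of which left out non-met 3 and non-met 4 together. In the shallowest library, of 733342 counts, 3 reads are worth 5.43 CPM, and in the met libraries 0.344 to 1.32 CPM.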

Other observations

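Some genes of the wider pathway were seen in 1 library alone. The atypical ligand *Dlk1*, known from stromal and progenitor cells, had 164 reads in non-met 5 (87.0 CPM) and 0 reads in the other libraries. *Dtx1*, a ubiquitin ligase that acts on Notch, had 88 reads in the same library (46.7 CPM) and 0 elsewhere. *Nog*, a secreted BMP antagonist made by type H endothelium under Notch control, had 31 reads in non-met 3 (9.64 CPM) and 0 elsewhere. None of the 3 passed the filter on low counts, and none was tested.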
